A study of Mus musculus with 7 samples.

Results

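Cytosolic ribosomal protein genes were read in RNA from kidney endothelial cells of mice with and without a tubule deletion of Vhlh. The genes were taken by symbol alone (Rpl or Rps with a number and at most a short ending, Rplp0 to Rplp2, and Rpsa), which leaves out the Rps6k kinases. The pattern matched 83 of the 26558 named genes, 51 for the large ribosomal subunit and 32 for the small one. The 4 mutant libraries came from C57BL/6 males aged 3 months of the genotype Hoxb7-Cre-GFP; Vhlh loxP/loxP. The 3 wildtype libraries came from males of the same strain and age that carried Hoxb7-Cre-GFP, so every animal had the Cre and GFP transgene. Hoxb7 drives Cre in the collecting duct lineage, and Vhlh, the gene of the von Hippel-Lindau protein that marks hypoxia-inducible factors for breakdown, is deleted there and not in the endothelial cells that were read. These cells were pulled out with beads carrying an antibody to Cd31 and were not cultured. Nothing in the labels ties a library to its own animal, and p-values therefore cover only differences among these libraries, which may be technical.

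A ribosome joins a small subunit, which holds the mRNA and reads its codons, to a large subunit, which links the amino acids and carries the stalk that recruits translation factors. Each ribosomal protein is needed in about the same number of copies, and their mRNAs are among the most abundant in most cells. Most of these mRNAs begin with a C followed by a run of pyrimidines, the 5′ terminal oligopyrimidine (TOP) tract, through which mTORC1 and the RNA-binding protein Larp1 control their translation and storage.

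The deposited values were FPKM, in which fragments are divided by transcript length and library size, so levels can be set side by side between genes. Libraries held between 13222 and 13337 genes at an FPKM of 1 or more, and their depths relative to wildtype 1 were 0.71 to 0.895. Vhl was at 6.78, 6.71 and 8.24 FPKM in wildtype and at 5.79, 5.57, 6.41 and 6.23 in mutant libraries (limma adjusted p = 0.123), which checks little, because the deletion is in other cells. All 10 endothelial markers on a fixed list were present, and their summed level was 2130 to 3220 FPKM in wildtype and 3290 to 3930 in mutant libraries. The summed level of 11 macrophage and dendritic cell markers was 12600 to 16900 FPKM in wildtype and 2740 to 4010 in mutant libraries. In such bulk samples fewer cells of a type and less RNA per cell cannot be told apart.

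The starts of these genes are shown because the TOP tract is the feature their mRNAs are known for. RefSeq promoter sequences (build GRCm38.p6) were matched for 63 of the 83 genes. Below are 30 bases around an annotated start, 15 before it and 15 from it on, read 5′ to 3′ on the gene's strand. Capitals mark a run of at least 5 pyrimidines that opens with C within 10 bases of the start. The first 6 genes are those with a matched start among the genes that fell in mutant libraries. The other 5 are genes described below that did not pass the test. They do not stand for all such genes, because each has a run of at least 8. Among the other described genes that did not pass, some, such as Rpl10 and Rpsa, have no run of at least 5. Others do, such as Rps12 with a run of 11.
Rps9, chr7:3704026-3704055, plus strand: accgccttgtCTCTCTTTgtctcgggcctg
Rps21, chr2:180257364-180257393, plus strand: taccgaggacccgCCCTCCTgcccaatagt
Rpl37a, chr1:72711245-72711274, plus strand: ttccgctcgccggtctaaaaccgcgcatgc
Rps13, chr7:116334176-116334205, minus strand: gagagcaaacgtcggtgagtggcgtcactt
Rps16, chr7:28350674-28350703, plus strand: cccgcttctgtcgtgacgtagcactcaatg
Rps28, chr17:33824548-33824577, minus strand: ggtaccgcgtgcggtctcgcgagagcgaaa
Rps6, chr4:86857353-86857382, minus strand: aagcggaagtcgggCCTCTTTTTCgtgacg
Rps27, chr3:90213634-90213663, minus strand: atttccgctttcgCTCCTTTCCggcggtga
Rplp2, chr7:141447636-141447665, plus strand: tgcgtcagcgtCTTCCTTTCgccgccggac
Rpl22l1, chr3:28805493-28805522, plus strand: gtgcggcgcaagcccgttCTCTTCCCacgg
Rpl39, chrX:37085208-37085237, minus strand: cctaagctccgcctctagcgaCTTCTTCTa

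Such a run of at least 5 stood at 38 of 71 annotated starts (53.5%) of the 60 tested genes with a match, against 32.3% of 11667 starts of other tested genes. A run of at least 8 stood at 33.8% against 8.64%. On the opposite strand, the run of at least 5 was less frequent at these starts (22.5%) than at others (36.2%). Within 300 bases, the letters CCGGAA, searched on both strands, were found at 49.3% of the starts against 25.4%. AAGATGGC was found at 11.3% against 4.06% and TATAAA at 9.86% against 7.53%. These are matches of letters in annotated windows, where the annotated start may lie some bases from the start used in these cells.

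Ribosomal protein mRNAs were lower in mutant than in wildtype libraries for most genes, by small amounts, and 11 of them passed the test. Of the 83 genes, 80 averaged 1 FPKM or more and were tested, 48 of the large and 32 of the small subunit. The 11 genes that fell made up 13.8% of those tested, and 0 rose. Over all 13420 genes tested, 7.34% fell and 8.76% rose; that balance turned with scaling, to 8.62 and 6.32% under median-of-ratios scaling and to 6.0 and 4.29% with libraries set to the same total. The median log2 fold change, mutant minus wildtype on log2(FPKM + 1), was -0.15 over the 80 genes (middle range -0.25 to -0.05) and 0.04 over all tested genes. It was below 0 for 67 of the 80 genes and for 43.2% of all tested genes. The 447 other genes averaging 100 FPKM or more had a median of 0.18, with 31.1% below 0. The groups did not overlap for 34 of the 80 genes, against 31.4% of all tested genes, and for 33 of the 34 the mutant libraries were the lower ones, against 12.5% of all tested genes. At an unadjusted p under 0.05, 22 of the 80 were lower and 1 was higher, against 1744 (13%) and 2610 (19.4%) of the 13420 genes.

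The count of 11 rested on the libraries used. It was 1 without mutant 1, 1 without mutant 2, 14 without mutant 3 and 2 without mutant 4. It was 3 without wildtype 1, 0 without wildtype 2 and 1 without wildtype 3. The share of all tested genes that fell moved too, from 7.34% with all libraries to 5.12, 6.55, 8.09 and 6.65% without mutant 1 to 4. Without wildtype 1 to 3 that share was 5.38, 3.88 and 4.57%. Rescaling each library to the same total of named FPKM left 1 gene, with 6.0% of all tested genes falling. The median log2 fold change of the 80 genes stayed between -0.19 and -0.10 in all of these fits.

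**Figure D1:**
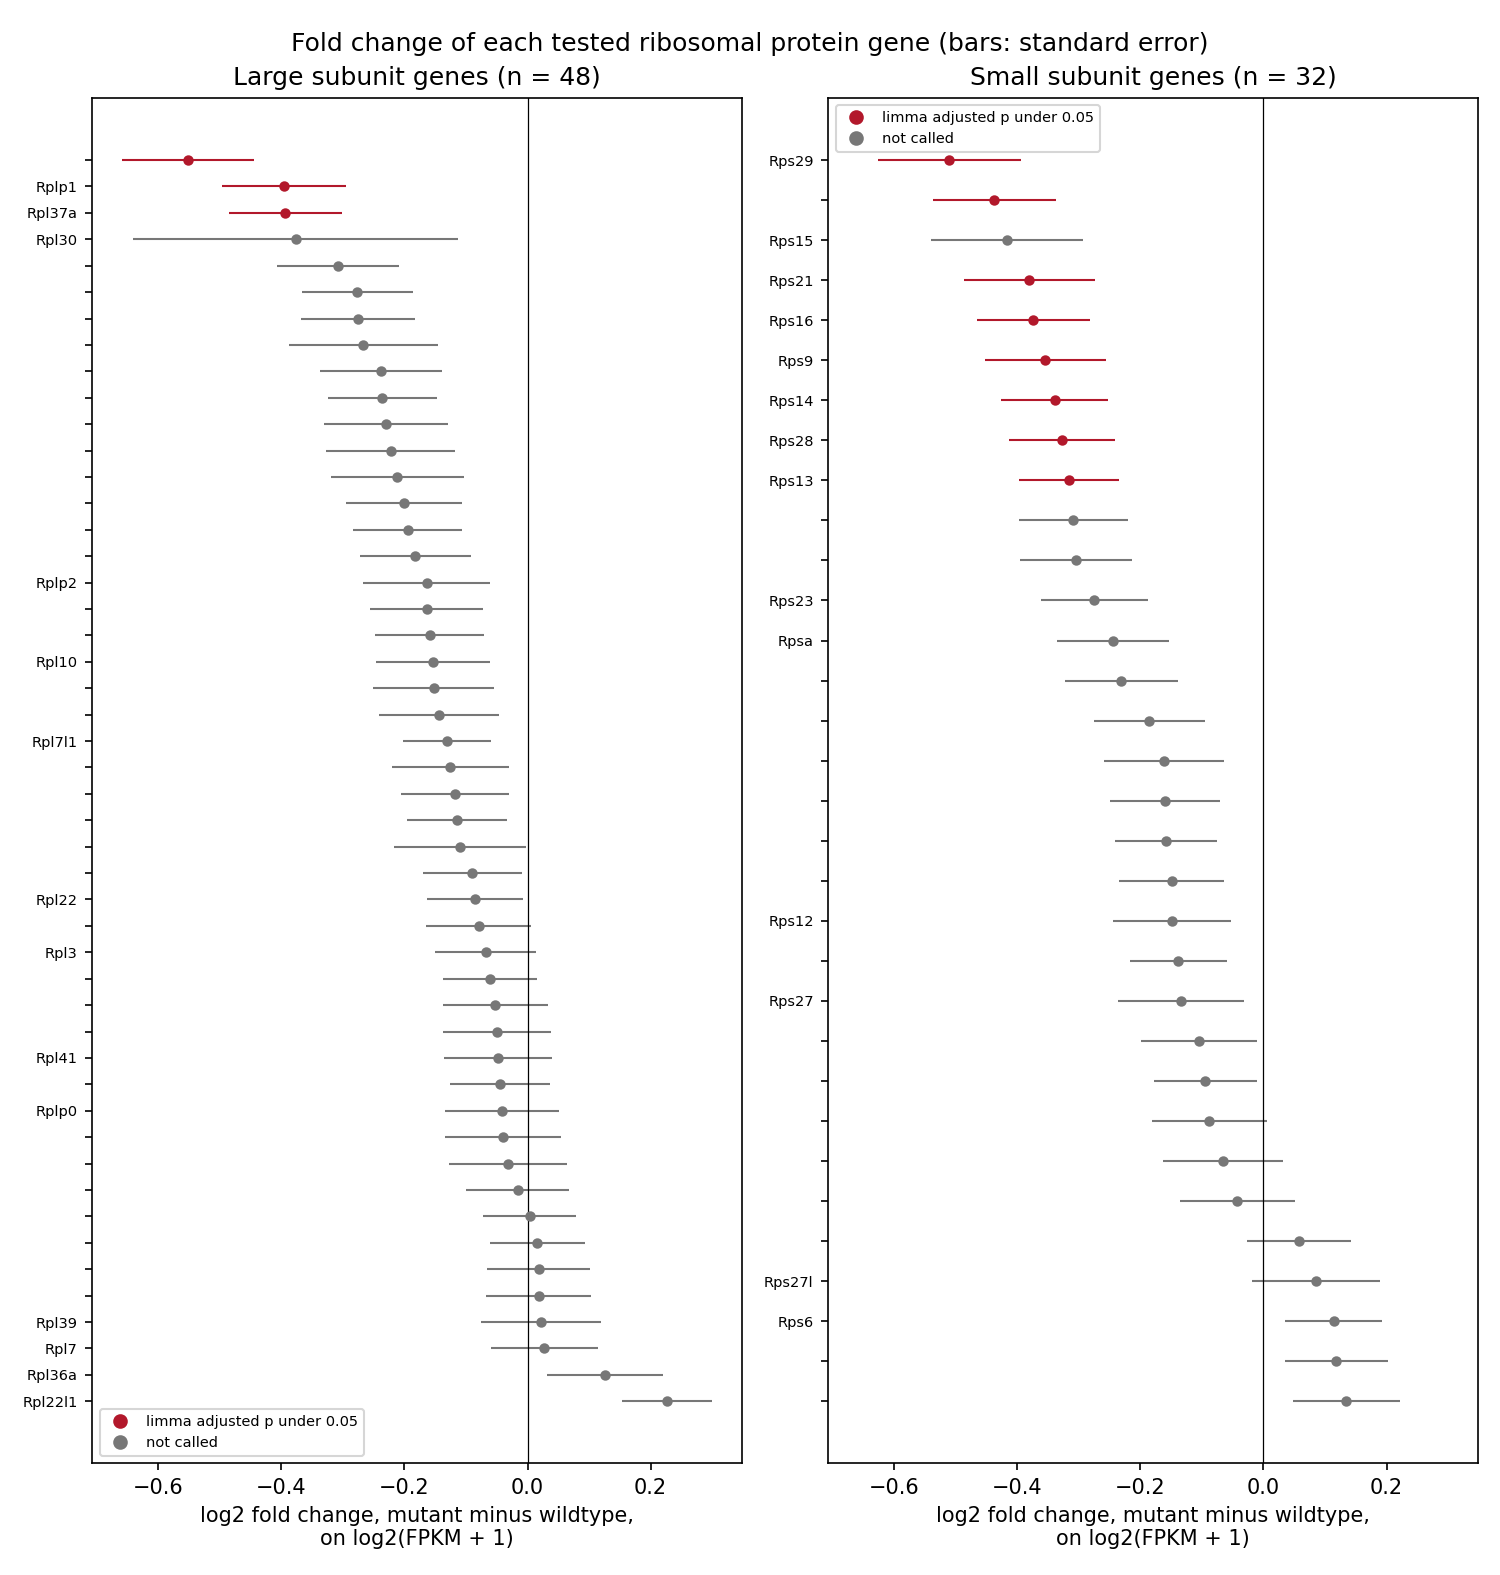
Log2 fold change (mutant minus wildtype, on log2(FPKM + 1)) of each tested large subunit gene (left) and small subunit gene (right), ordered by size. Points are limma estimates with standard errors as bars, red marks an adjusted p under 0.05, and names stand at genes described in the text; 40 of 48 large and 27 of 32 small subunit genes lie below 0.

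Among small subunit genes 8 of 32 fell (25%) and 0 rose, against 7.34 and 8.76% of all tested genes. Their median log2 fold change was -0.16. Groups did not overlap for 18 of the 32 (56.2%), all with the mutant libraries lower, against 12.5% of all tested genes. Rps29, a zinc-binding protein of the small subunit head, was at 1243, 1425 and 1316 FPKM in wildtype libraries 1 to 3 and at 840.4, 895.2, 1092 and 913 FPKM in mutant libraries 1 to 4. All mutant libraries lay below all wildtype libraries, with mutant 3 nearest to them. The gene (chr12:69157722-69159186, minus strand, in GENCODE M21 on mm10) fell by 29.6%, a log2 fold change of -0.51 (SE 0.116, limma adjusted p = 0.0245).

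Rps21 (chr2:180257377-180258445, plus strand) was at 682.8, 763.9 and 673 FPKM in wildtype and at 493.1, 515.9, 615.9 and 549.7 FPKM in mutant libraries. Mutant 3 was again the highest of its group, and the groups were apart. Rps21 fell by 23.1% (log2 fold change -0.38, SE 0.106, limma adjusted p = 0.0476).

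Rps16, whose tail reaches towards the tRNA in the peptidyl site (chr7:28350652-28353155, plus strand), was at 524.4, 589.9 and 559.7 FPKM in wildtype and at 404.9, 416.5, 474.6 and 426.2 FPKM in mutant libraries. It fell by 22.8% (log2 fold change -0.37, SE 0.0919, limma adjusted p = 0.0324) with no overlap of the groups. Rps9, a protein at the entry of the mRNA channel (chr7:3703993-3706897, plus strand), was at 649, 728.2 and 705.6 FPKM in wildtype and at 488, 557.5, 595.5 and 533.7 FPKM in mutant libraries. Mutant 3 came closest to wildtype 1, and the groups were apart. Rps9 fell by 21.7% (log2 fold change -0.35, SE 0.0986, limma adjusted p = 0.0475).

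Rps14, a protein of the subunit platform whose loss of a copy underlies a human anaemia of the bone marrow (chr18:60747098-60778546, plus strand), was at 679.3, 751.2 and 705.8 FPKM in wildtype and at 529.7, 548, 599.9 and 573.4 FPKM in mutant libraries. It fell by 21% (log2 fold change -0.34, SE 0.0869, limma adjusted p = 0.0374), and no mutant library reached a wildtype one. Rps28 (chr17:33819027-33824562, minus strand), a small protein of the head, was at 575.5, 653.6 and 624.7 FPKM in wildtype and at 466.1, 487.1, 518.3 and 495.4 FPKM in mutant libraries. Its mutant libraries lay close together and below the wildtype ones. It fell by 20.4% (log2 fold change -0.33, SE 0.0862, limma adjusted p = 0.0403).

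Rps13, which takes part in a bridge to the large subunit (chr7:116331505-116334195, minus strand), was at 398.7, 421.8 and 437.1 FPKM in wildtype and at 313.8, 339.4, 341.7 and 351.6 FPKM in mutant libraries. Here mutant 4 and not mutant 3 was the highest mutant library, and the groups did not overlap. Rps13 fell by 19.7% (log2 fold change -0.32, SE 0.0814, limma adjusted p = 0.0381). Close outside the threshold stood Rps15 (log2 fold change -0.42, limma adjusted p = 0.0588), named after its values were seen. For Rps15 too, all mutant libraries were below all wildtype ones.

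**Figure D2:**
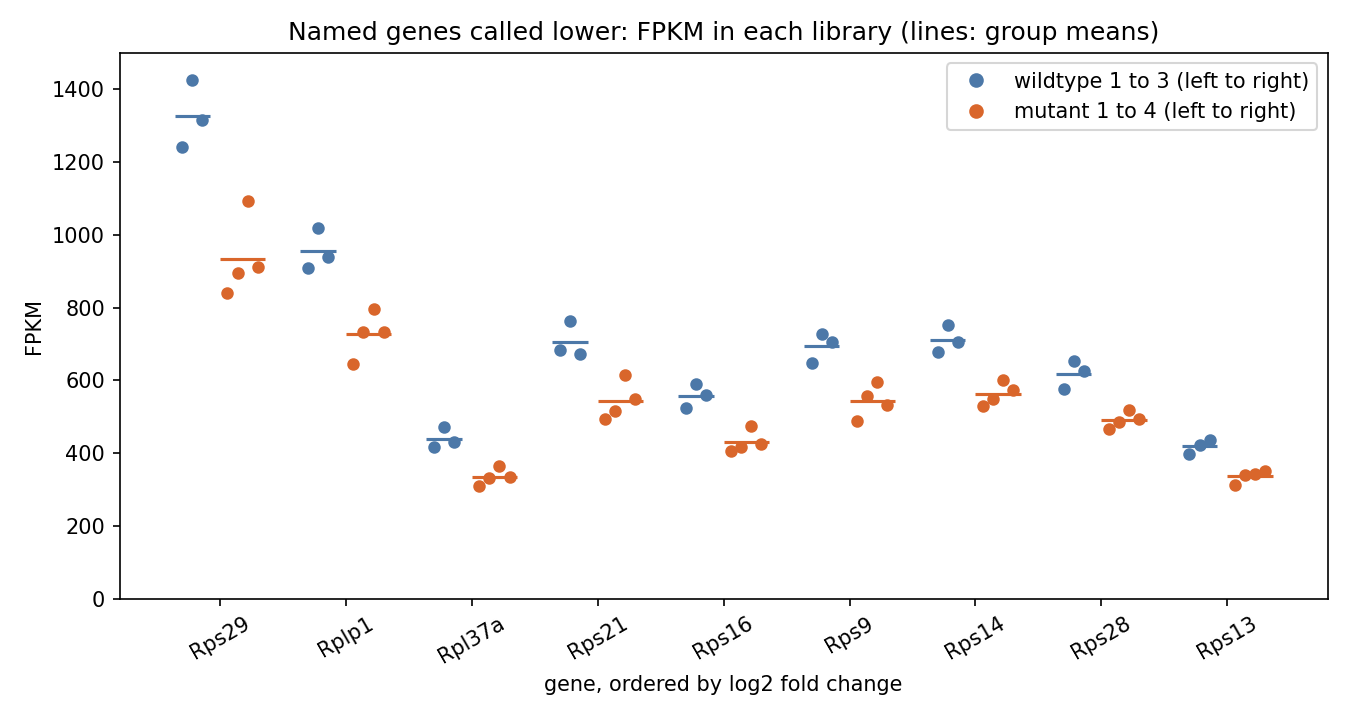
FPKM in each library of 9 genes that fell, with wildtype libraries in blue, mutant libraries in orange and lines at the group means. The groups do not overlap in any of the 9, and mutant 3 is the highest mutant library in all but Rps13.

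Among large subunit genes 3 of 48 fell (6.25%) and 0 rose, against 7.34 and 8.76% of all tested genes. The share that fell was thus near that of all tested genes. Their median log2 fold change was -0.12, against 0.04 over all tested genes. Mutant libraries were all lower for 15 of the 48 (31.2%) and all higher for 1 (2.08%), against 12.5 and 18.9% of all tested genes. Whether the subunits differ in how many genes fell was not tested.

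Rpl37a, a small zinc-binding protein (chr1:72711290-72713813, plus strand), was at 417.1, 473.3 and 430.6 FPKM in wildtype and at 309.8, 331.3, 365.7 and 333.3 FPKM in mutant libraries. It fell by 23.9% (log2 fold change -0.39, SE 0.0915, limma adjusted p = 0.0267), with no overlap. Rplp1, a stalk protein (chr9:61913284-61914542, minus strand), was at 908.5, 1018 and 938.6 FPKM in wildtype and at 645.7, 733.4, 795.9 and 732.9 FPKM in mutant libraries. Mutant 1 was the lowest library and all 4 lay below the wildtype range. Rplp1 fell by 23.9% as well (log2 fold change -0.40, SE 0.101, limma adjusted p = 0.0374).

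The calls of single genes differed in how far they leaned on 1 library. Rps29 passed without wildtype 1 or mutant 3 and was lost when wildtype 2 or 3 or mutant 1, 2 or 4 was left out (limma adjusted p 0.0538 to 0.114). Rplp1, Rpl37a, Rps9, Rps14, Rps16, Rps21 and Rps28 passed without mutant 3 and were lost without any other single library (limma adjusted p 0.0511 to 0.186). Rps13 was lost whichever library was left out (limma adjusted p 0.0502 to 0.140). All 11 kept a negative fold change in each of these fits.

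The other stalk proteins and the most abundant genes did not pass the test. Rplp2, the partner of Rplp1, was at 821.7, 866.1 and 810.8 FPKM in wildtype and at 642.8, 778.8, 760 and 800.8 FPKM in mutant libraries. Its mutant libraries were all lower, mutant 4 by a narrow margin (log2 fold change -0.16, SE 0.103, limma adjusted p = 0.314). Rplp0, which anchors both to the ribosome, was at 366.9, 415.7 and 418.2 FPKM in wildtype and at 362.4, 417.4, 402.9 and 372.5 FPKM in mutant libraries, and the groups overlapped (log2 fold change -0.04, limma adjusted p = 0.802).

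The highest level of the set was that of Rps27, a zinc-binding small subunit protein, which led its subunit in every library. It was at 1408, 1494 and 1431 FPKM in wildtype and at 1175, 1287, 1375 and 1442 FPKM in mutant libraries. The groups overlapped through mutant 4 (log2 fold change -0.13, SE 0.102, limma adjusted p = 0.409; 0.04 after quantile normalization). Rps29 was second in every library, but it fell while Rps27 did not pass. The next small subunit genes were Rps12 (log2 fold change -0.15, limma adjusted p = 0.327) and Rps23, a protein of the decoding centre (-0.28, limma adjusted p = 0.0707).

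The order among large subunit genes changed from library to library. Rplp1 was highest in all 3 wildtype libraries and in mutant 3, Rpl10 in mutant 1 and 2, and Rplp2 in mutant 4. Rpl10, which joins the large subunit last and completes its catalytic centre, was at 785.4, 820.8 and 895.6 FPKM in wildtype and at 693.6, 790.3, 744.6 and 768.3 FPKM in mutant libraries, and the groups overlapped. Its log2 fold change was -0.15 (limma adjusted p = 0.291), and that of Rpl41, which encodes a very short protein, was -0.05 (limma adjusted p = 0.753). Over all tested genes of the set, the median level was 387 FPKM in the large and 511 FPKM in the small subunit.

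A minority stood on the other side. The log2 fold change was above 0 for 13 of the 80 genes, and 0 of them passed the test. Rps6, the small subunit protein phosphorylated by the S6 kinases, was at 269.9, 292.9 and 292.2 FPKM in wildtype and at 291.4, 320.8, 310.1 and 311.4 FPKM in mutant libraries. Mutant 1 lay among the wildtype libraries and the other 3 above them (log2 fold change 0.11, SE 0.0781, limma adjusted p = 0.358). Rpl36a, named after its values were seen, had a log2 fold change of 0.13 (limma adjusted p = 0.399). Rpsa, a small subunit protein also known as a laminin receptor, was below the wildtype range in all mutant libraries (log2 fold change -0.24, SE 0.0908, limma adjusted p = 0.109).

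Several genes have a close copy whose use differs between tissues. Rpl22l1 is the copy of Rpl22, an RNA-binding large subunit protein that holds Rpl22l1 down in mouse cells. Rpl22l1 was at 71.8, 72.5 and 77.3 FPKM in wildtype and at 90.7, 87.2, 87.6 and 81.0 FPKM in mutant libraries, the only tested gene of the set with all mutant libraries higher. Groups with all mutant libraries higher were found for 18.9% of all tested genes, and Rpl22l1 did not pass (log2 fold change 0.23, SE 0.0731, limma adjusted p = 0.0747). Rpl22 itself was at 59.8, 61.6 and 59.0 FPKM in wildtype and at 51.6, 55.6, 60.0 and 59.8 FPKM in mutant libraries, so its groups overlapped (log2 fold change -0.08, limma adjusted p = 0.499). The level of Rpl22l1 averaged 123% ± 7.15 (SD, n = 3) of that of Rpl22 in wildtype libraries and 154% ± 17.1 (SD, n = 4) in those of mutants. By library it was 120, 118 and 131% against 176, 157, 146 and 136%, so the copy was the more abundant in every library and the ranges were apart, with no test of the ratio.

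Rps27l, a p53 target that is a copy of Rps27, was at 79.8, 89.3 and 99.3 FPKM in wildtype and at 84.8, 94.9, 95.7 and 104.2 FPKM in mutant libraries. Its groups overlapped (log2 fold change 0.09, limma adjusted p = 0.616). Its level was 5.67, 5.98 and 6.94% of that of Rps27 in wildtype and 7.21, 7.37, 6.96 and 7.23% in mutant libraries, where mutant 3 lay just above wildtype 3. Rpl7l1, known from its yeast counterpart as an assembly factor, stood at 2.91% ± 0.16 (SD, n = 3) of Rpl7 in wildtype libraries and 2.59% ± 0.0641 (SD, n = 4) in those of mutants. The groups of Rpl7l1 did not overlap, but it did not pass (log2 fold change -0.13, limma adjusted p = 0.250), nor did Rpl7 (0.03, limma adjusted p = 0.862).

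The 3 genes under the filter were copies known from other tissues. Rpl10l, a testis copy of Rpl10, was listed at 0 in every library. Rpl39l, a testis copy of Rpl39, was listed at 0 in wildtype 1 and 2 and in mutant 2, and reached 0.227 FPKM in mutant 1. Rpl39 itself was at 498.4 to 560.2 FPKM in wildtype and at 475.3 to 565.2 FPKM in mutant libraries (log2 fold change 0.02, limma adjusted p = 0.905). Rpl3l, the copy of Rpl3 used in heart and skeletal muscle, was at 0.263, 0.253 and 0.186 FPKM in wildtype and at 0.492, 0.587, 0.723 and 0.441 FPKM in mutant libraries, a low level at which few reads decide a value. Rpl3 did not pass (log2 fold change -0.07, limma adjusted p = 0.616).

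**Figure D3:**
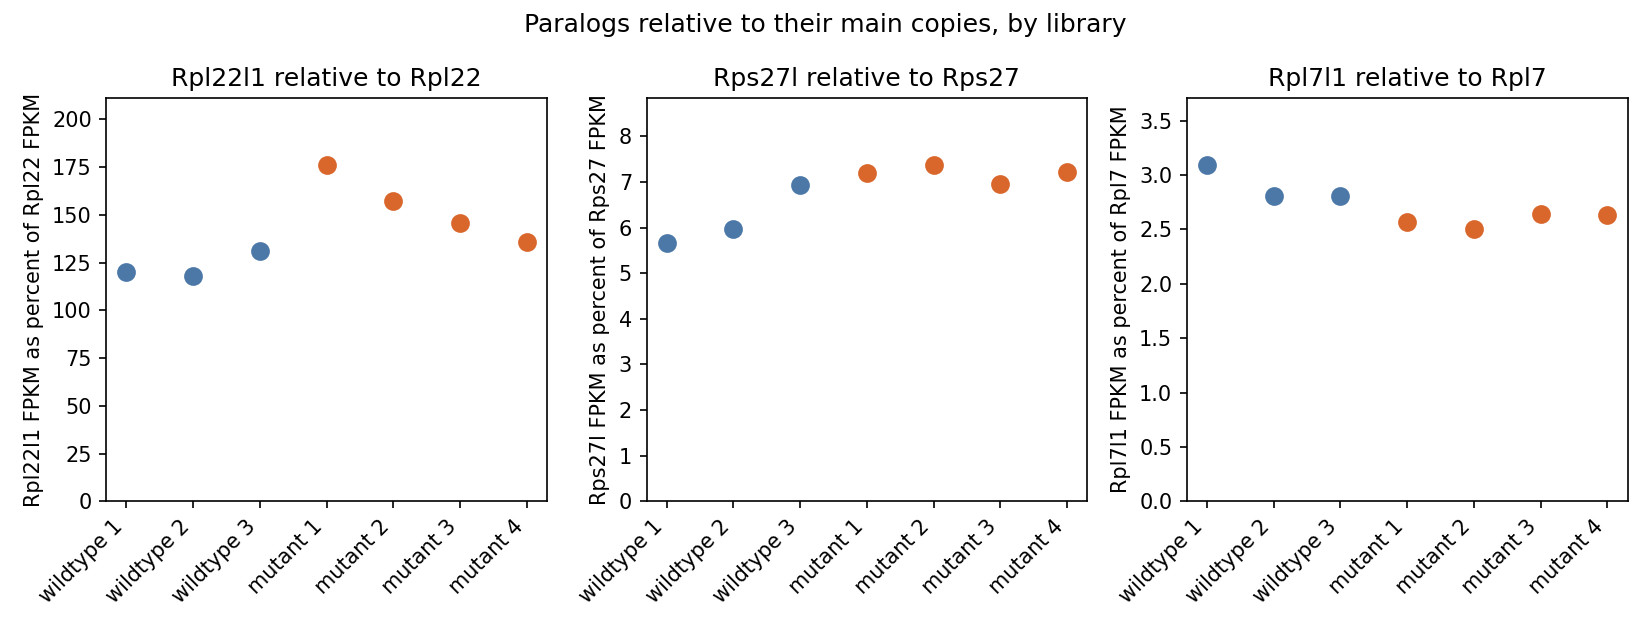
Level of a copy as a percent of the level of its main gene, both in FPKM, for Rpl22l1 (left), Rps27l (middle) and Rpl7l1 (right) in each library, with wildtype in blue and mutant in orange. Rpl22l1 lies at 118 to 131% of Rpl22 in wildtype and at 136 to 176% in mutant libraries, and the order of the groups is the opposite for Rpl7l1.

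Summed over all 83 genes, ribosomal protein mRNA made up 36326, 39490 and 38748 FPKM in wildtype and 30882, 34034, 35770 and 34469 FPKM in mutant libraries. Mutant 1 was the lowest library and mutant 3 came near wildtype 1 without reaching it, and the group mean was lower by 11.5% (change -11.5%). As a share of named FPKM without micro and small nucleolar RNA genes, the sums were 10.34, 10.93 and 10.65% in wildtype and 9.06, 9.62, 10.39 and 9.14% in mutant libraries, where mutant 3 overlapped wildtype 1. Micro and small nucleolar RNA genes themselves took 3.83 to 17.69% of the named FPKM of a library, most in mutant 1. Summed small subunit FPKM did not overlap between groups (change -13.9%), and summed large subunit FPKM did (change -9.4%).

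The balance of the subunits within a library does not depend on the scaling between libraries. Small subunit genes held 46.41, 46.52 and 46.0% of the summed FPKM in wildtype and 44.98, 44.8, 45.22 and 45.18% in mutant libraries. The share was lower in all mutant libraries, by a small and even amount, with means of 46.31% ± 0.274 (SD, n = 3) and 45.05% ± 0.194 (SD, n = 4). Without the pair of genes highest in each subunit (Rplp1, Rpl10, Rps27 and Rps29) it was 44.13 to 44.49% in wildtype and 43.07 to 43.18% in mutant libraries.

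**Figure D4:**
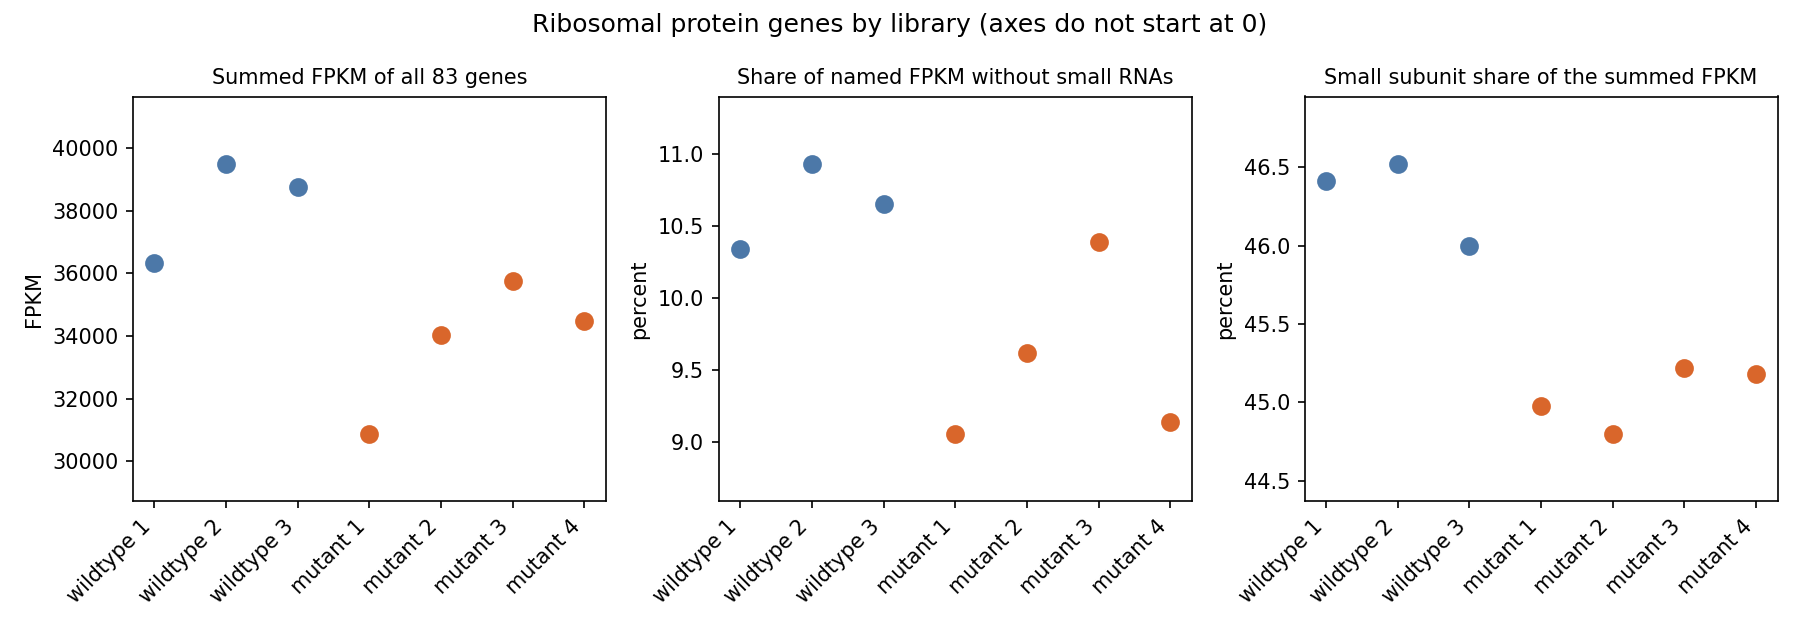
Summed FPKM of the 83 genes (left), their percent of named FPKM without micro and small nucleolar RNA genes (middle) and the small subunit's percent of the summed FPKM (right) in each library, wildtype in blue and mutant in orange, on axes that do not start at 0. The groups are apart in the left and right panels, and mutant 3, at 10.39%, overlaps wildtype 1, at 10.34%, in the middle.

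The genes moved together from library to library. Mutant 1 was the lowest mutant library for 74 of the 80 tested genes, and wildtype 1 the lowest wildtype library for 69. Mutant 1 lay below every wildtype library for 71 of the 80, mutant 2 for 48, mutant 3 for 42 and mutant 4 for 47. The same counts over all tested genes were not taken, so whether these orders are particular to the set was not tested. The spread within groups was small, with a median coefficient of variation of 5.4% in wildtype and 7.1% in mutant libraries, against 9.6 and 12.5% for the 447 other genes at 100 FPKM or more. The exception was Rpl30, named after its values were seen, at 287.8, 325.7 and 515.9 FPKM in wildtype and at 332.2, 214.6, 378.0 and 229.1 FPKM in mutant libraries. Wildtype 3 stood far above the other libraries for Rpl30, and its log2 fold change of -0.38 came with an SE of 0.264 (limma adjusted p = 0.369).

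Fold changes went with base composition. Across the 80 genes, the log2 fold change and the GC content of the main GENCODE M21 transcript had a Pearson r of -0.43 (Spearman rho -0.38). The r was -0.40 in the large and -0.48 in the small subunit. These are descriptions across genes of the same 7 libraries, and genes are not independent replicates. Over 12183 other tested genes with a transcript, r was -0.12 (Spearman rho -0.2). The 20 genes with the lowest GC content (40.6 to 48.3%) included 1 that fell and had a median log2 fold change of -0.08. The 20 with the highest (54.3 to 60.8%) included 4 and had a median of -0.18. Lengths and GC content are those of main transcripts, which may differ from the transcripts behind the FPKM values. In the low-GC range, Rps15a has 5179 bases for a coding sequence of 390, and Rps20 has 3706 for 357.

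Split by library, the relation was uneven. Deviations were taken from each gene's mean over all 7 libraries, so these values divide up the same contrast and do not repeat it. Deviations of the 80 genes from their means had an r with GC content of 0.50, 0.53 and 0.06 in wildtype 1 to 3 and of -0.48, -0.28, -0.0 and -0.39 in mutant 1 to 4, so wildtype 3 and mutant 3 showed almost none. In other genes the values were 0.11, 0.26 and -0.03 in wildtype and -0.17, -0.15, 0.06 and -0.06 in mutant libraries. After a correction of each library for GC content, fitted on genes outside the set and chosen after seeing the data, 16 of the 80 fell, the 11 among them. They were 5 of the large and 11 of the small subunit. Of all genes in that fit 9.49% fell, against 7.34% in the main fit, and the median over all genes moved from 0.039 to -0.005. Median-of-ratios scaling, which has no GC term, gave 17 of the 80. Whether the added calls came from GC content was not tested.

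**Figure D5:**
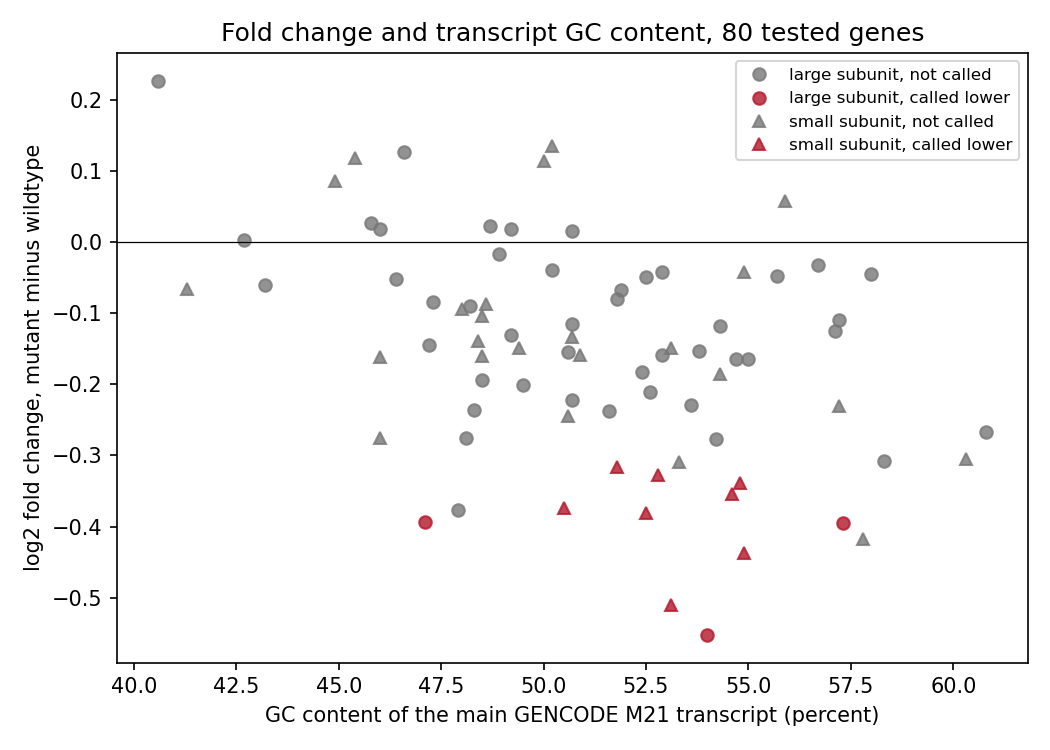
Log2 fold change (mutant minus wildtype) against the GC content in percent of the main GENCODE M21 transcript for the 80 tested genes, circles for the large and triangles for the small subunit, red for genes that fell. Points slope down to the right with r = -0.43, and the red points lie between 47.1 and 57.3% GC.

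Other properties of the genes were looked at beside the change. The 11 genes that fell had a median transcript length of 589 bases and a GC content of 53.1%, against 835 bases and 50.6% for the 69 others. The 83 genes lay on 19 chromosomes. Small nucleolar RNA genes lay inside 30 of them, 58 in all, with up to 5 in Rpl4. Processed copies named as pseudogenes of 60 of the genes number 298 in the annotation, with up to 24 for a gene, so reads of these genes may be shared with copies. Rps12 is among those with 24. Of the genes that fell, Rps9, Rps14, Rps21, Rps28 and Rpl37a have 0 so named, and Rps13, with 7, has the most. Only names made of the gene symbol and the ending -ps were counted. Copies under other names are left out, so a 0 does not show that a gene has no copy.

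Fold changes were then set beside the TOP tract. The median log2 fold change was -0.15 for the 24 genes with a run of at least 8 pyrimidines, -0.13 for 12 with a run of 5 to 7 and -0.15 for 24 with a shorter run. Of the 6 genes that fell and had a matched start, 2 (Rps9 and Rps21) had a run of at least 5. Of the 54 that did not pass, 34 had one. Rps6, Rps27, Rplp2, Rpl22l1 and Rpl39, whose starts are printed above, had long runs and did not pass. Rpl10, Rpl41, Rplp0, Rpl7l1 and Rpsa did not pass either, and their runs were shorter than 5. For Rplp1, Rps14 and Rps29 no start was used.

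Ribosomal proteins whose symbols the pattern does not cover were read beside the set. Fau, which encodes a ubiquitin-like protein joined to a small subunit protein, was at 629, 730 and 654 FPKM in wildtype and at 399, 442, 489 and 450 FPKM in mutant libraries. The groups were well apart, and Fau fell (log2 fold change -0.59, SE 0.102, limma adjusted p = 0.00859). It passed with any library left out. Gnb2l1, the scaffold protein Rack1 on the small subunit, was lower in all mutant libraries and did not pass (log2 fold change -0.26, limma adjusted p = 0.0633), nor did Rpl36al (0.09, limma adjusted p = 0.611).

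Other genes of the translation apparatus were read from lists beside the set, against 8.76% that rose, 7.34% that fell and a median log2 fold change of 0.04 over all tested genes. Of 76 mitochondrial ribosomal protein genes, 1 rose (Mrps6, log2 fold change 0.78, limma adjusted p = 0.0140) and 0 fell, and the median log2 fold change was 0.06. Mrps6 was lost without wildtype 2 (limma adjusted p = 0.0570) or wildtype 3 (0.0554). Of 47 translation factors, 2 rose and 0 fell, with a median of 0.15 and 8 of the 47 below 0. Those that rose were Eif2s2, a subunit of the factor that brings the first tRNA (log2 fold change 0.40, limma adjusted p = 0.0185), and Eif4g1, the scaffold of the cap-binding complex (0.26, limma adjusted p = 0.0442). Eif2s2 was lost without wildtype 1 (limma adjusted p = 0.0627) or wildtype 2 (0.0859), and Eif4g1 without any single library but mutant 3 (0.0729 to 0.155). Eif4g1 was also lost under median-of-ratios scaling (limma adjusted p = 0.0728), quantile normalization (0.119), the same total (0.216) and the GC correction (0.0549), and Eif2s2 under the GC correction (0.0536). Of 54 genes for ribosome assembly and RNA polymerase I, Gar1, a part of RNA-modifying particles, rose (log2 fold change 0.38, limma adjusted p = 0.00891) and Tcof1, a nucleolar factor for ribosomal DNA transcription, fell (-0.56, limma adjusted p = 0.00865). Their median was 0.02, and Gar1 was lost without wildtype 2 (limma adjusted p = 0.0531) and with libraries set to the same total (0.0578).

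Regulators of ribosomal protein synthesis moved singly. Among 24 genes of mTORC1, Myc and TOP control, 1 rose and 3 fell, and the median log2 fold change was -0.001. Ddit4, an inhibitor of mTORC1 induced by hypoxia, was at 32.9, 37.7 and 26.9 FPKM in wildtype and at 72.9, 66.1, 72.3 and 45.2 FPKM in mutant libraries. All mutant libraries were higher, mutant 4 least, and Ddit4 rose (log2 fold change 0.95, SE 0.188, limma adjusted p = 0.0153). Without wildtype 3 its limma adjusted p was 0.0574. Rptor, the mTORC1 subunit that binds substrates, was at 5.99, 6.23 and 6.6 FPKM in wildtype and at 4.6, 4.73, 5.2 and 4.22 FPKM in mutant libraries and fell (log2 fold change -0.36, limma adjusted p = 0.0250). Eif4ebp2, a repressor of cap-dependent translation under mTORC1, fell (log2 fold change -0.30, limma adjusted p = 0.0191), as did Sesn1, an mTORC1 inhibitor (-0.40, limma adjusted p = 0.0188). These 3 calls were lost without wildtype 2 or wildtype 3 (limma adjusted p 0.0641 to 0.0967) or mutant 1 for Rptor (0.0620) and Sesn1 (0.0504), mutant 2 for Rptor (0.0537) and Eif4ebp2 (0.0561), and wildtype 1 for Rptor (0.0555) and Eif4ebp2 (0.0600). With libraries set to the same total, all 3 were lost as well (limma adjusted p = 0.0763 for Rptor, 0.0687 for Eif4ebp2 and 0.0584 for Sesn1), and Rptor was also lost when that total left out small RNAs and the ribosomal protein genes (0.0501).

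Of the 10 Rps6k kinase genes, Rps6ka1 fell from 18.6, 21.3 and 23.5 FPKM in wildtype to 9.33, 11.3, 13.9 and 10.6 FPKM in mutant libraries (log2 fold change -0.86, SE 0.136, limma adjusted p = 0.0062), and it passed in every alternative. Rps6ka6 rose from a low level (log2 fold change 0.53, limma adjusted p = 0.00885). The S6 kinases Rps6kb1 (log2 fold change 0.07, limma adjusted p = 0.592) and Rps6kb2 (-0.04, limma adjusted p = 0.782) did not pass.

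Markers of other cells moved between the groups. Of the 11 markers of macrophages and dendritic cells 10 fell (median log2 fold change -2.22), and of 10 endothelial markers 3 rose (Pecam1, Cdh5 and Tie1), with a median of 0.40. Of 8 collecting duct and distal tubule markers 2 rose (Slc12a3 and Krt19), 0 fell and 3 had a log2 fold change below 0. Those 3 were Aqp2 (-1.22, limma adjusted p = 0.0711), Aqp3 (-0.67, 0.133) and Hsd11b2 (-0.50, 0.225). The 8 summed to 1460 to 1700 FPKM in wildtype and 1730 to 2720 in mutant libraries. Umod was the largest part of both sums, with means of 1190 and 1690 FPKM. Of 4 B cell markers 1 fell. Of the markers tested for proximal tubule (8), T and NK cells (5), pericytes (5), cycling cells (5), red cells (3) and neutrophils (2), 0 passed in either direction. Proximal tubule markers summed to 3050 to 5120 FPKM in wildtype and 1030 to 7750 in mutant libraries. Of them, Kap alone ran from 2380 to 4300 FPKM in wildtype and from 231 to 6790 in mutant libraries. The part of the marked cell types, of GC content or of small RNA content in the lower ribosomal protein mRNA levels was not tested.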

How the data were processed

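The authors' deposited table gave FPKM for 7 libraries, per the file headers. RSEM 1.2.28, Bowtie2 2.3.4.1, Trimmomatic 0.39 and the mm10 build appear in the submitters' processing notes, without their roles. The sources used here do not give the annotation, the use of strand or the scaling between libraries. Per the labels' protocols, mRNA was poly(A)-selected and made into stranded paired-end libraries. The table held 27014 entries; 429 without a gene name (18.35 to 29.26% of the FPKM per library) were dropped, 27 symbols found on 2 entries were summed, and 0 columns were left unmapped.

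Whole-read steps were seen in 33.9 to 37.8% of low values, too few to recover counts, so absolute depth is unknown and no count model was used. Within-group correlations over genes were 0.947 to 0.978.

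With limma 3.58.1 (R 4.3.3), log2(FPKM + 1) was tested for genes averaging 1 FPKM or more (empirical Bayes with trend, two-sided, Benjamini-Hochberg adjusted p under 0.05 over all 13420 genes), which understates fold changes of low genes. The fit was tested on simulated data. Coordinates, counted from 1, transcript lengths and GC content came from GENCODE M21, and Rps3a was matched as Rps3a1. Named were the genes that passed, the 4 most abundant of each subunit, those under the filter, paralog pairs, stalk proteins, Rps6, Rpsa and up to 4 genes passing per companion list. The genes, lists and tests were chosen with earlier results of these data known. Alternatives were 2 pseudocounts (0.1 and 0.5), 2 filters, 4 scalings, array weights, no trend, a replicate block and leaving out each library. Some genes that the naming rule took are not reported here, and all counts include them.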

Additional observations from a re-analysis of the deposited data

Results flagged for a closer look

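Rps23, a small subunit protein of the decoding centre, had 1 mutant library apart from the others. Mutant 1 was at 640 FPKM and the other 3 mutant libraries were at 718 to 727 FPKM, so that the gap took 0.905 of the range of the group. Of the 47 groups of values checked in this way 1 stood out, and chance gives about 1 in 20 for independent groups. These groups are not independent, because mutant 1 was the lowest mutant library for 74 of the 80 tested genes.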

How the results depend on the processing

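The medians, the summed level and the subunit share kept their direction, and their values within the spread between libraries, under the alternatives run for them, and so did the direction of every single gene that passed. Genes that did not pass turned as follows. Log2 fold changes after quantile normalization were 0.031 for Rpl10, 0.082 for Rpl41, 0.048 for Rps12, 0.044 for Rps27 and -0.001 for Rps27l. The GC correction gave -0.023 for Rps27l, -0.049 for Rpl39 and -0.073 for Rpl7. Median-of-ratios scaling and the same total gave -0.021 and -0.007 for Rpl39 and -0.016 and -0.002 for Rpl7, and the replicate block gave -0.009 for Rpl39. Leaving out single libraries gave -0.012 to 0.074 for Rpl39 and -0.011 to 0.064 for Rpl7. Counts of genes moved more. Against 11 that fell, 24 fell with array weights and 17 with median-of-ratios scaling, where 13.5 and 8.62% of all genes fell. Without a filter 2 of 82 fell, against 4.53% of all genes. With libraries set to the same total 1 fell, against 6.0% of all genes. The other scalings, filters, pseudocounts, the fit without a trend and the GC correction gave 9 to 16, with 7.03 to 9.49% of all genes falling. Large subunit genes that fell, 3 of 48, numbered 10 with array weights, 5 with median-of-ratios scaling, quantile normalization or the GC correction, which was chosen after seeing the data, and 1 without a filter or with the same total. Small subunit genes, 8 of 32, numbered 14 with array weights, 4 with quantile normalization, 1 without a filter and 0 with the same total. Of the 11, quantile normalization called 4 and left 5 large against 4 small subunit genes. Against 0 that rose, 1 rose with array weights (Rpl22l1) and 1 without a filter (Rpl3l), where 16.8 and 4.43% of all genes rose. Leaving out each library gave 0 to 14 that fell, 0 to 5 of the large and 0 to 9 of the small subunit, and 0 that rose. Of all tested genes, 324 to 1205 then rose and 521 to 1085 fell, against 1176 and 985. Array weights gave 2258 and 1812, and the same total 576 that rose. The cause of these differences was not tested.

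Libraries of both groups share replicate numbers, but nothing in the labels says that a number marks a pair. Deviations from the group means of same-numbered libraries had correlations of -0.061, 0.026 and -0.281 over all tested genes, so the numbers were not taken as pairs. With the replicate number as a block, 0 genes of the set passed, 0 of the large and 0 of the small subunit, and 261 of all tested genes rose and 423 fell. Of the genes named as passing in the lists of other ribosomal proteins, translation, assembly, regulators and kinases, Rps6ka1 and Ddit4 passed with the block and the others did not. Absolute depth is unknown, which limits Rpl3l, Rpl39l and Rpl10l.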
